A study of Mus musculus with 6 samples.

Results

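The loci described here hold 6 mouse genes for proteins that neutrophils and their precursors pack in bulk: Mpo, Prtn3, Elane, Ctsg, S100a8 and S100a9. They were defined as 4 intervals of mm9, the mouse genome build of the deposited table: chr11:87595001-87630000 around Mpo, chr10:79325001-79360000 around Prtn3 and Elane, chr14:56705001-56735000 around Ctsg, and chr3:90465001-90505000 around S100a8 and S100a9. The loci were chosen by the difference in methylation level between the genotypes, because windows at Mpo and Ctsg were among the few of the genome with a lower level after loss of Tet2 and Tet3. Differences between genotypes at these loci are therefore given as a description and support nothing. The intervals hold 1662 of the 20451903 CpGs listed, in 140 of the 2491243 windows of 1 kb with a CpG.

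The levels come from bisulfite sequencing of whole genomes of mouse LSK cells, isolated from bone marrow as cells with c-Kit and Sca-1 and without lineage markers, a fraction in which blood stem cells and early progenitors are found. The groups were 3 samples of Tet2/3 double-knockout cells (DKO, lacking both Tet2 and Tet3) and 3 samples of wild-type cells (WT), and the comparison asks how losing the 2 genes changes DNA methylation. The alleles, the way and time of deletion, the age and sex of the mice and whether each biological replicate was a single mouse are not stated in the labels, so p-values below measure the spread between these samples. The table holds methylation only, so the identity of the sorted cells could not be checked against marker expression. The DKO samples held 83560585 to 111763872 read calls at CpGs and the WT samples 70815948 to 72747248, a mean depth of 4.09 to 5.46 calls per CpG in DKO and 3.46 to 3.56 in WT. As a check of the labels, a segment of chromosome 3 and one of chromosome 6 were found with 0 to 14 calls in each DKO sample and 109 to 231 calls in each WT sample. The mitochondrial methylation level, used as a measure of incomplete conversion by bisulfite, was 1.71% ± 0.170 in DKO and 1.28% ± 0.0797 in WT (SD, n = 3 each), and its part in the levels below was not tested.

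Myeloperoxidase, the product of Mpo, makes hypochlorous acid from hydrogen peroxide and chloride. Neutrophil elastase (Elane), proteinase 3 (Prtn3) and cathepsin G (Ctsg) are serine proteases that are stored with it in the primary, or azurophil, granules. These granules form at the promyelocyte stage, and low transcription of Mpo is already known from multipotent progenitors that lean to the myeloid side. S100a8 and S100a9 encode the calcium-binding subunits of calprotectin, an abundant protein of the neutrophil cytosol that appears later in maturation. Tet enzymes oxidise 5-methylcytosine to 5-hydroxymethylcytosine and on to marks that can be replaced by plain cytosine. Bisulfite sequencing reads 5-methylcytosine and 5-hydroxymethylcytosine alike, so a level here is the sum of both marks.

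The promoters, taken as the 300 bases with 250 before and 50 after the gene start, were read from RefSeq for GRCm38.p6 and placed on the mm9 CpG list by the exact spacing of their CpGs. Promoters are shown for the 2 genes with a window of lower level in DKO (Mpo and Ctsg), for Elane, the most methylated of the protease promoters, and for S100a8, where the groups did not overlap. Each is written 5′ to 3′ along its gene, with the CpGs, the only bases whose methylation was measured, in capitals.

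Mpo, chr11:87607036-87607335, plus strand: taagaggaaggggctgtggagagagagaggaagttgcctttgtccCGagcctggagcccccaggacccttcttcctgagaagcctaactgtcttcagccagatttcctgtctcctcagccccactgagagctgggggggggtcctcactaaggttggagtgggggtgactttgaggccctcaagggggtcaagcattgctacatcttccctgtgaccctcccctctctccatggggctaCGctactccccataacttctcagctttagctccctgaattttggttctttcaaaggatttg
Ctsg, chr14:56721362-56721661, minus strand: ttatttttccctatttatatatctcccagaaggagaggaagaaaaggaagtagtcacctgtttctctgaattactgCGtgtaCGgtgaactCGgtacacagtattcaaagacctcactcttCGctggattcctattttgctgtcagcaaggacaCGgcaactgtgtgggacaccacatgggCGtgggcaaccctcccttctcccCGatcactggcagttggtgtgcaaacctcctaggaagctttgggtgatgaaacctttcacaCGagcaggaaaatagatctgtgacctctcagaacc
Elane, chr10:79348807-79349106, plus strand: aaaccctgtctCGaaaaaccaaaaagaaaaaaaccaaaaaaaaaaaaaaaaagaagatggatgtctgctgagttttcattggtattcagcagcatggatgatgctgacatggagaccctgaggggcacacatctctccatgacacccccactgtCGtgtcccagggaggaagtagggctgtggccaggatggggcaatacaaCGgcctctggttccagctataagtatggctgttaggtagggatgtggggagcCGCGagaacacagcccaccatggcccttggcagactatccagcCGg
S100a8, chr3:90472743-90473042, plus strand: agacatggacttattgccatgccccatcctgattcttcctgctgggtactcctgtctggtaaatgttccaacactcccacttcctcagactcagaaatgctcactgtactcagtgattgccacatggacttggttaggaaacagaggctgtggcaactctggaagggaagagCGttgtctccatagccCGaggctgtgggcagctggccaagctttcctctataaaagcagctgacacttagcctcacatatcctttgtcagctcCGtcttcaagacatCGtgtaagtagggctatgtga

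The promoters hold 2 CpGs at Mpo and at S100a9, 4 at Prtn3 and at S100a8, 6 at Elane and 8 at Ctsg, where the median RefSeq promoter of the same length has 7 and 54.2% have no more than 8. The motif AGGAAGT, the letters read by ETS-family factors such as PU.1, was searched on both strands after the sequences had been seen. It is present in 5 of the 6 promoters, S100a9 being the exception, and in 9.35% of 32851 RefSeq promoters. The letters TATAA, on either strand, are in 5 of the 6, Mpo being the exception, and in 24.9% of RefSeq promoters. These matches are descriptions of the sequence and none of them holds a CpG.

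A level is methylated calls over all calls, in percent, summed over the CpGs of a region. It is an average over the sorted cells, so fewer cells of a type and less methylation per cell cannot be told apart. Over the whole Mpo interval the level was 86.7%, 83.2% and 85.8% in DKO replicates 1, 2 and 3, against 82.9%, 85.2% and 85.0% in WT replicates 1, 2 and 3. The groups overlapped and their means differed by 0.861 points ± 1.29 (SE). The Prtn3 and Elane interval had 64.6%, 60.1% and 60.9% in DKO and 57.3%, 59.8% and 59.9% in WT. All DKO samples exceeded all WT samples, by 2.83 points ± 1.62 (SE) on average, and by 1.46 points without DKO replicate 1. The level over all autosomes was 81.6% ± 0.826 in DKO and 80.8% ± 0.314 in WT (SD, n = 3 each). With each sample's autosomal level taken off, the groups overlapped at this interval. The values were then -17.3, -20.6 and -21.4 points in DKO and -23.6, -20.7 and -21.1 in WT.

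The Ctsg interval had 80.8%, 83.6% and 87.6% in DKO, against 86.4%, 85.0% and 86.6% in WT, and the groups overlapped. The S100a8 and S100a9 interval had 87.0%, 87.5% and 89.5% in DKO, against 87.8%, 86.1% and 86.1% in WT, and overlapped too. The interval means of the genotypes thus differed by no more than 2.83 points in size with all calls. In windows with at least 20 calls in every sample alone, the difference was -5.61 points at Ctsg and 3.34 points at S100a8 and S100a9.

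Compared with the rest of the genome, a comparison that the choice of loci did not use, the protease pair stood apart. Across the 6 samples the Prtn3 and Elane interval differed from the autosomal level of the same sample by -20.8 points ± 2.04 (SD), lower in 6 of 6. Mpo lay 3.58 points ± 1.17 above it and S100a8 with S100a9 6.08 points ± 0.950 above it, each higher in 6 of 6. For these 3 intervals the two-sided exact sign-flip permutation test gave p = 0.03125, the smallest that 6 samples allow, or 0.0417 after Benjamini-Hochberg adjustment over the 4 intervals. Ctsg lay 3.76 points ± 2.59 above the autosomal level, higher in 5 of 6 samples with DKO replicate 1 below it, and did not pass (exact adjusted p = 0.0625). Set against the median tested window of the genome instead of the read-weighted level, all 4 intervals lay lower. The mean difference was -31.0 points at Prtn3 and Elane and -4.16 to -6.66 points at the others. The same sign-flip test gave an adjusted p of 0.03125 for each of the 4. The direction at Mpo, at Ctsg and at S100a8 with S100a9 thus depends on the reference used.

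The protease pair lies where CpGs are dense. Its interval listed 20.8 CpGs per kb, against 12.8 at Mpo, 8.40 at Ctsg and 5.85 at S100a8 and S100a9. In 7 of its 27 tested windows the mean level was below 50% in DKO, and in 7 it was below 50% in WT. The lowest, chr10:79337001-79338000, has 68 CpGs and holds the promoter of Plppr3, a neighbouring gene on the minus strand. Its level was 3.88%, 2.34% and 0% in DKO, against 0%, 0.905% and 0% in WT, with 129 to 385 calls a sample. A second low window, of 31 CpGs, lies inside Prtn3 between 1589 and 2588 bp after its start. It had 1.85%, 1.61% and 1.04% in DKO and 0%, 7.07% and 8.86% in WT, so the groups overlapped and both were nearly free of methylation.

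**Figure D1:**
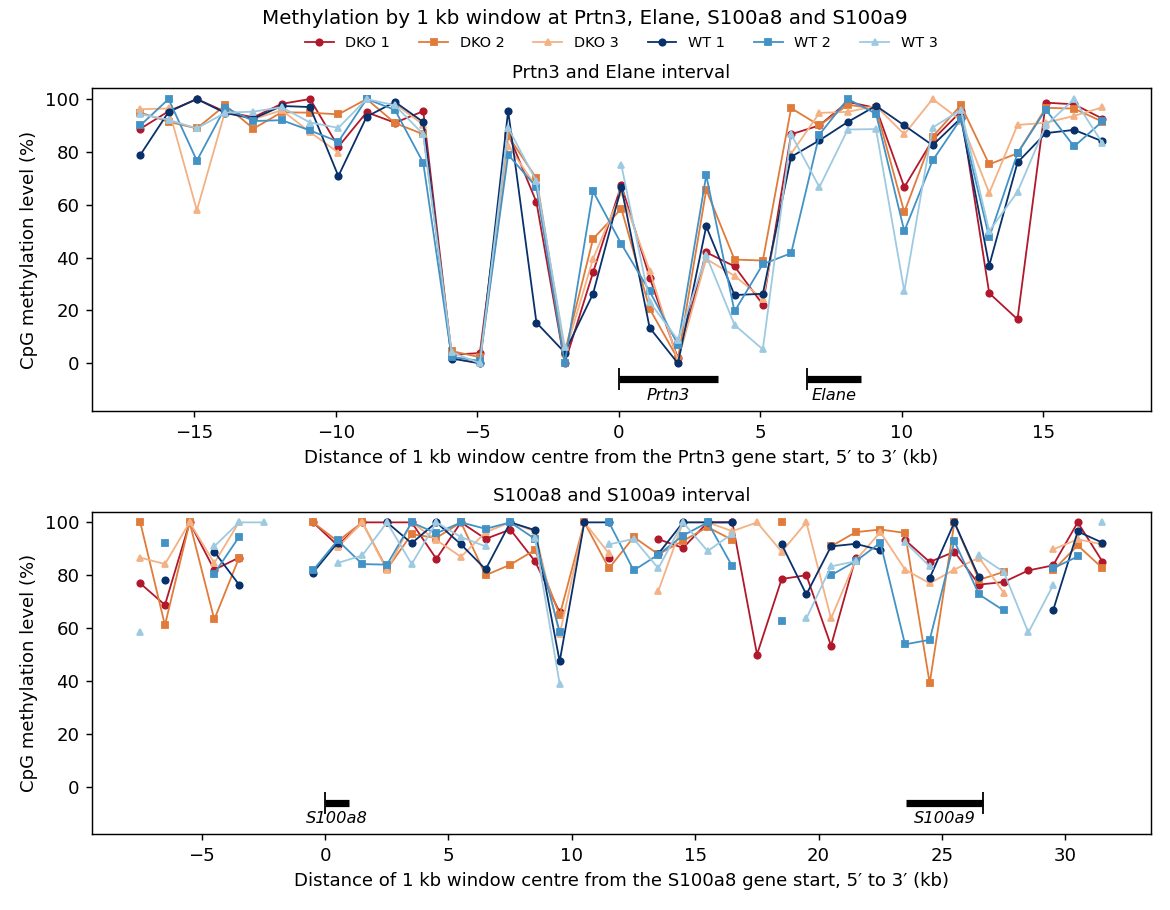
Methylation level (%) of 1 kb windows by distance from the gene start (kb), for each DKO and WT sample, where a sample had at least 10 calls. Black bars mark the genes, drawn from their placed starts with RefSeq lengths. The deep troughs upstream of and inside Prtn3 are shared by all 6 samples, and S100a8 and S100a9 lie in highly methylated sequence.

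A window was tested where every sample had at least 20 calls and the window at least 3 CpGs, which held for 70 of the 140 windows: 27 at Mpo, 27 at Prtn3 and Elane, 9 at Ctsg and 7 at S100a8 and S100a9. A call needed an adjusted p under 0.05 in a quasi-binomial test fitted to all 774732 tested windows and a difference of at least 10 points. By it 2 of the 70 were lower in DKO, 1 at Mpo and 1 at Ctsg, and 0 were higher, where over all tested windows 0.00723% were called lower and 0.490% higher, 0.497% in either direction. The loci were chosen through these calls, so nothing is read from the count. At an unadjusted p under 0.05, 6 of the 70 were lower and 7 higher, 18.6% in all, against 9.27% of all tested windows (15133 lower and 56683 higher). Every DKO sample lay below every WT sample in 2 windows of the 70, against 3.75% of all tested windows, and above in 5, against 9.05% of all. The median difference of the 70 was 1.98 points, against 0.928 points over all tested windows, and the DKO mean was lower in 25 of them (35.7%, against 41.7% of all).

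The 2 calls depended on the samples, the windows and the test used. Without DKO replicate 3 the Mpo call remained and the Ctsg call did not, and without any other single sample 0 windows of the loci were called. With the window borders moved by 500 bp, or the minimum set to 10 or 40 calls, 0 were called as well. With the replicate number as a block, or with limma on log2 ratios, 0 were called in the loci and 0 in the genome, where 64211 and 61094 windows had an unadjusted p under 0.05. Without DKO replicate 2, for example, 29 windows were called in the whole genome, against 3854 with all samples. The differences in level themselves changed less, as given below.

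**Figure D2:**
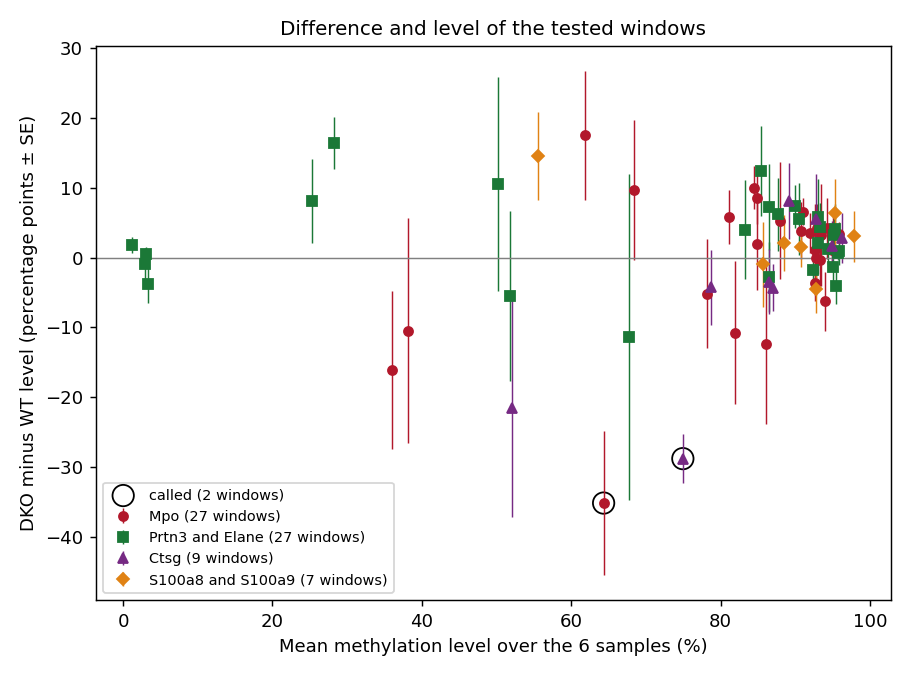
DKO minus WT level (percentage points, with SE, n = 3 each) of the 70 tested windows against their mean level over the 6 samples (%), by interval, with the 2 called windows circled. Most windows lie above 80% with differences within 10 points of 0. The called Mpo and Ctsg windows are the lowest points.

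The called Mpo window, chr11:87609001-87610000, begins 1715 bp after the gene start and lies within the gene. No exon map of mm9 was used here, so exon and intron are not told apart. It holds 20 CpGs with 41 to 89 calls a sample. Its level was 43.1%, 33.7% and 63.4% in DKO, against 77.1%, 75.9% and 92.7% in WT. All DKO samples were below all WT samples, and DKO replicate 3 was the nearest to WT. The means were 46.8% ± 15.2 in DKO and 81.9% ± 9.40 in WT (SD, n = 3 each). They differed by -35.1 points ± 10.3 (SE). It is the second largest in size of the genome's 56 lower calls. Leaving out each sample in turn gave -43.5 to -28.6 points. Giving each CpG the same weight in every sample (matched weights), over the 7 CpGs read in all 6, gave -40.0. The weight of a CpG was its number of calls pooled over all samples, so CpGs with more calls counted more.

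Single CpGs of this window moved the same way. With the calls of a group pooled, 17 of the 20 CpGs had a lower level in DKO, 2 a higher one and 1 an equal one, with a median difference of -39.8 points. Only 7 of the 20 were read in every sample, so pooled levels of different CpGs rest on different samples. At the cluster of 4 CpGs from 87609735 to 87609770, for example, the pooled level was 30.0% to 60.9% in DKO with 20 to 23 calls each. In WT it was 72.7% to 92.9% with 9 to 14 calls each. There DKO replicate 1 gave 9 or 10 calls at each CpG, while DKO replicate 3 gave 2 to 4. CpGs on a read share that read, so they are not independent. Pooled over the window, 78 of 181 calls were methylated in DKO (95% Wilson interval 36.1% to 50.4%), against 159 of 196 in WT (75.1% to 86.0%). These intervals cover counting error only.

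From the called window to the Mpo promoter, the DKO mean was lower with all calls, without separation of the groups, and higher with matched CpG weights. The window before the called one, 87608001-87609000, had the lowest level of the interval. Its level was 21.6%, 18.2% and 44.1% in DKO and 59.7%, 35.3% and 37.0% in WT. There DKO replicate 3 lay among the WT samples. With matched CpG weights, over the 7 of the window's 13 CpGs read in all samples, the difference of -16.0 points became 12.98. That window also holds the start of Gm34064, a long noncoding RNA gene on the opposite strand, whose 7 promoter CpGs had 19.0%, 12.96% and 39.0% in DKO and 45.8%, 22.2% and 31.0% in WT. The window with the Mpo promoter, 87607001-87608000, had 5.88%, 46.2% and 46.7% in DKO and 56.4%, 47.1% and 26.7% in WT, which overlap. Its difference of -10.5 points became 3.03 without DKO replicate 1 and 1.20 with matched CpG weights.

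Past the called window, 87610001-87611000 had 74.8%, 60.9% and 94.0% in DKO, against 80.3%, 88.5% and 93.0% in WT. DKO replicate 3 again stood with WT there. Over the 7 adjacent windows whose DKO mean was lower, 87606001-87613000, an extent set after the values were seen, the level was 56.2%, 46.8% and 70.5% in DKO and 71.9%, 75.9% and 70.8% in WT. The margin between DKO replicate 3 and the lowest WT sample was small. With matched weights over 41 CpGs the groups overlapped, with a difference of -12.5 points, against -15.0 with all calls. Calls per CpG in this stretch, relative to the autosomes of the same sample, were 0.784 to 1.06.

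The opposite difference was found at the far end of the same interval. The window with the largest gain, 87625001-87626000, lies 17715 to 18714 bp after the Mpo start, beyond the gene. It had 76.5%, 66.7% and 68.5% in DKO, against 42.9%, 70.4% and 45.9% in WT. WT replicate 2 lay among the DKO samples. With matched weights over the window's 3 CpGs read in all samples the difference was 1.99 points, against 17.5 with all calls. In 3 of the 27 tested windows of the interval, not all of them at its far end, all DKO samples exceeded all WT samples. Of all tested windows of the genome 9.05% did so, and nothing is read from the count. The largest difference among them was that of 87628001-87629000, with 89.5% ± 3.72 in DKO and 79.5% ± 3.66 in WT (SD, n = 3 each).

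**Figure D3:**
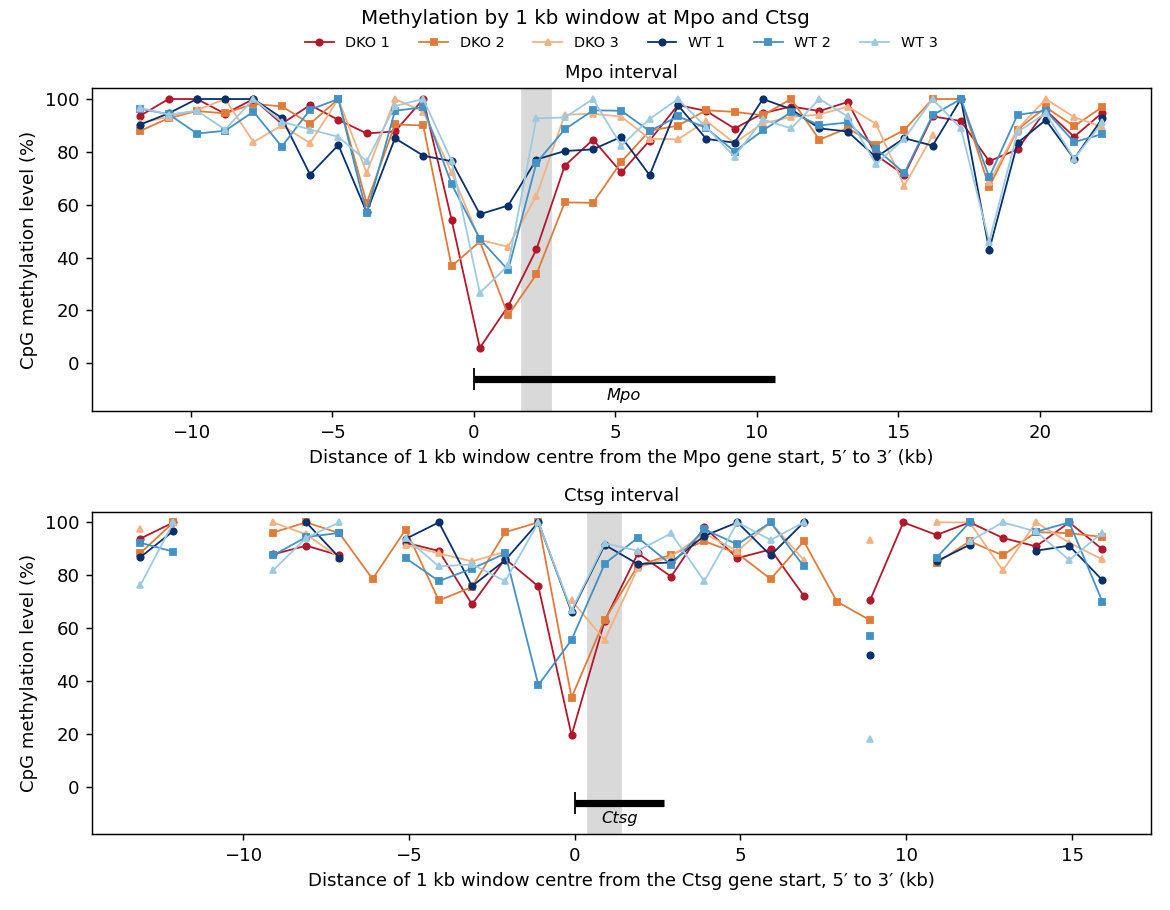
Methylation level (%) of 1 kb windows by distance from the gene start (kb) at Mpo and Ctsg, for each DKO and WT sample with at least 10 calls, with the called windows shaded and the genes as black bars. Both loci dip around the gene start, and the shaded windows have 63.4% or less in each DKO sample and 75.9% or more in each WT sample.

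The called Ctsg window, chr14:56720001-56721000, spans 411 to 1410 bp after the start of the gene, which runs on the minus strand. It holds 15 CpGs with 32 to 78 calls a sample. The level was 62.8%, 63.2% and 55.6% in DKO, against 91.5%, 84.4% and 92.1% in WT. The DKO samples lay close together and all below WT, DKO replicate 3 being the lowest here. The means were 60.5% ± 4.32 in DKO and 89.3% ± 4.30 in WT (SD, n = 3 each). They differed by -28.8 points ± 3.52 (SE), and by -31.3 to -26.3 points when 1 sample was left out. It was -26.0 with matched weights over 8 CpGs, -20.2 in a bin counted from the gene start and -14.8 in 2000 bp around the same centre.

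In pooled calls 12 of the 15 CpGs were lower in DKO, 1 was higher and 2 were equal, with a median difference of -23.8 points. The 2 equal CpGs, at 100% in both groups, are those farthest into the gene. Pooled over the window, 122 of 200 calls were methylated in DKO (95% Wilson interval 54.1% to 67.5%), against 105 of 117 in WT (82.9% to 94.0%).

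**Figure D4:**
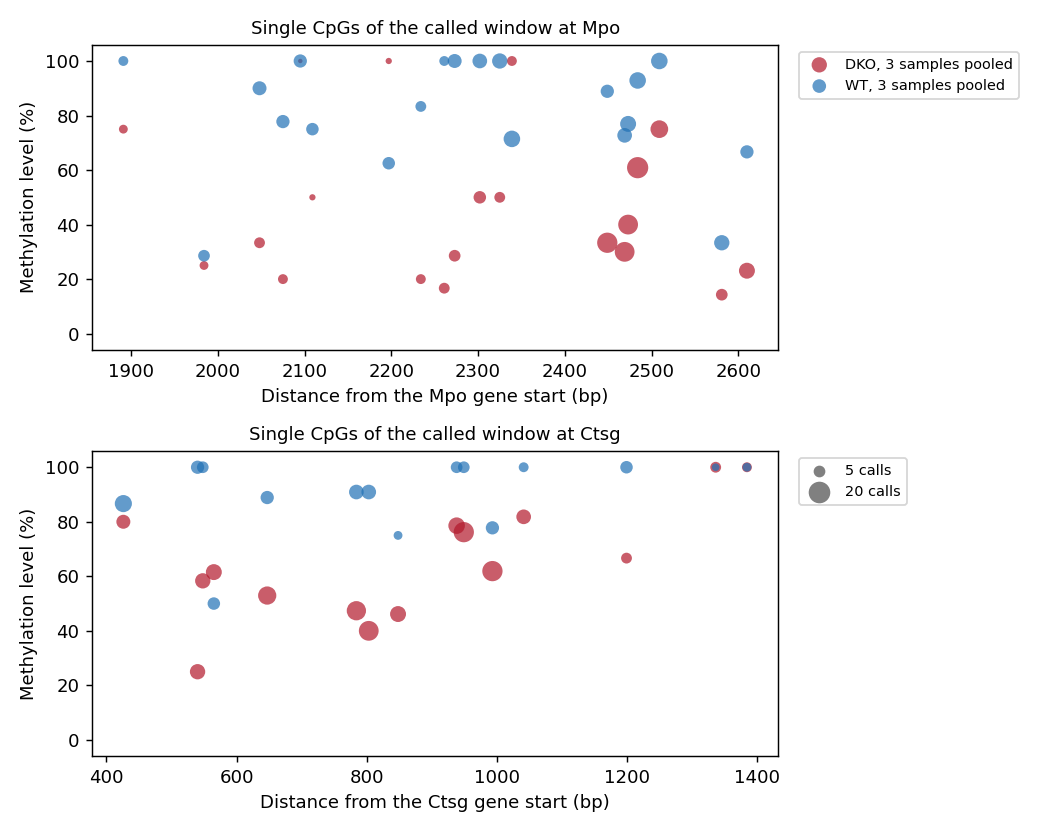
Pooled methylation level (%) of each CpG in the called windows at Mpo and Ctsg by distance from the gene start (bp), in DKO and in WT, with marker area growing with the number of calls. DKO lies below WT at 17 of 20 CpGs at Mpo and at 12 of 15 at Ctsg.

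The neighbouring window upstream, 56721001-56722000, holds the Ctsg promoter and had the lowest level of the interval. It had 19.5%, 33.7% and 70.5% in DKO, against 66.1%, 55.6% and 66.7% in WT. The means were 41.2% ± 26.3 in DKO and 62.8% ± 6.26 in WT (SD, n = 3 each). Among the tested windows of the 4 intervals that were not called, this is the largest loss. The Ctsg window above is the smaller loss of those called in the intervals. DKO replicates 1 and 2 lay far below WT while DKO replicate 3 lay above it, and the difference of -21.6 points moved between -36.2 and -10.7 when 1 sample was left out. The neighbour on the other side, 56719001-56720000, had 88.3%, 83.6% and 82.8% in DKO and 84.2%, 94.2% and 89.2% in WT, which overlap. With matched weights over 10 CpGs its samples did not overlap, with 87.5% ± 3.41 in DKO and 96.7% ± 1.61 in WT (SD, n = 3 each), and its difference of -4.32 points became -9.25. Across 56718001-56723000, again an extent set after seeing the values, the level was 57.4%, 70.0% and 73.7% in DKO and 81.9%, 74.9% and 86.2% in WT. The separation was lost with matched CpG weights, where the difference was -14.7 points, against -14.0 with all calls.

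At the promoters themselves the 6 genes fell into different states. The 2 CpGs of the Mpo promoter had 3 methylated of 29 calls in DKO, all 3 from DKO replicate 3, and 0 of 21 in WT, which would allow a level of up to 14.3% for independent calls. By sample this was 0%, 0% and 42.9% in DKO and 0% in each WT sample, on 6 to 14 calls. The Prtn3 promoter had no call in DKO replicate 2 or WT replicate 3, and 2 of 6 calls methylated in DKO, against 0 of 18 in WT. These numbers are too small to compare the genotypes.

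The Elane promoter was methylated in both groups, with 75.0%, 100% and 79.3% in DKO and 78.6%, 66.7% and 77.5% in WT on 11 to 40 calls. The groups overlapped. Between the neighbouring genes, 58 of 78 calls were methylated at the Elane promoter in WT (95% Wilson interval 63.7% to 82.7%), against 0 of 18 at the Prtn3 promoter in WT, which would allow up to 16.7% for independent calls. Calls at neighbouring CpGs can come from 1 read, so this limit and that at Mpo are too low.

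The Ctsg promoter had 21.0%, 29.8% and 68.6% in DKO on 81, 57 and 35 calls, against 65.8%, 65.1% and 69.2% in WT on 38, 43 and 39 calls. DKO replicate 3 was within the WT range, and the other DKO samples were at less than 30%. In pooled calls all of its 8 CpGs were lower in DKO, by a median of 40.8 points. The CpG nearest to the gene start was almost free of methylation in both groups, with 0% of 23 calls in DKO and 6.67% of 15 calls in WT. The 3 CpGs at 56721569 to 56721584 had pooled levels of 20.0% to 35.3% in DKO and 68.8% to 92.9% in WT. There DKO replicate 1 gave 11 calls at each CpG, most of the DKO calls, while DKO replicate 3 had 4 of 4, 2 of 4 and 3 of 4 methylated.

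The S100a8 promoter had every call methylated in DKO, 20, 6 and 5 of them, against 76.5%, 78.6% and 58.3% of 17, 14 and 12 calls in WT. The groups did not overlap, on few calls. Of its 4 CpGs, 0 were read in every sample, so the samples rest on partly different CpGs. Pooled, the DKO level was 100% (95% Wilson interval 89.0% to 100%) and the WT level 72.1% (57.3% to 83.3%). The 1 kb window of this promoter, 90472001-90473000, had 100% in each DKO sample and 81.0%, 81.8% and 100% in WT, which overlap. Over its 1 CpG read in all samples the difference was 0. Separation with DKO the higher group was found in 9.05% of all tested windows, so nothing is read from it. The S100a9 promoter had 55.6%, 80% and 55.6% in DKO, against 81.8%, 77.8% and 100% in WT, where the last value rests on 1 call, and the groups overlapped.

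**Figure D5:**
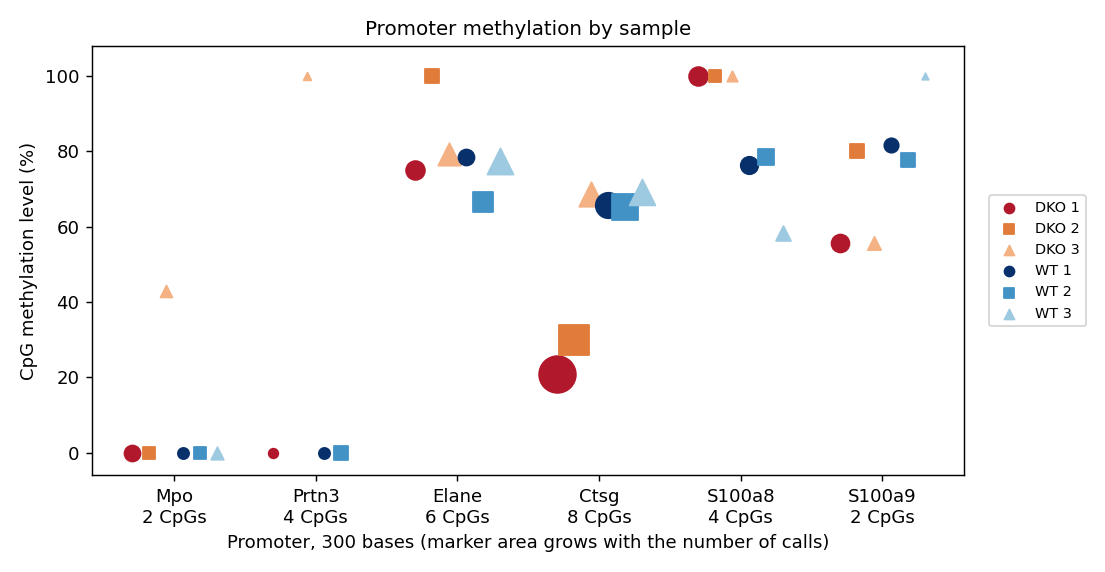
Methylation level (%) of the 300-base promoter of each gene in each DKO and WT sample, with marker area growing with the number of calls. Mpo sits at 0% in 5 of 6 samples, Elane is at 66.7% or more in all samples, and at Ctsg DKO replicates 1 and 2 stand apart from DKO replicate 3 and WT.

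The choice of loci did not use the difference between a promoter and the rest of its interval. It did use the levels of the called windows, which lie near the Mpo and Ctsg promoters and within the rest of their intervals. The tests at these 2 promoters are therefore not fully independent of the choice. The Mpo promoter differed from the rest of its interval by -78.0 points ± 17.1 (SD, 6 samples), and the Ctsg promoter by -33.4 points ± 20.7, each lower in 6 of 6 samples. The Elane promoter lay 19.2 points ± 11.5 above the rest, higher in 6 of 6. For all 3, p was 0.03125 by the exact sign-flip permutation test, the smallest it can give, and 0.0521 after adjustment over the 5 promoters with a call in every sample, which misses 0.05. The S100a9 promoter was lower in 5 of 6 samples, with a mean of -12.4 points ± 18.1 (exact adjusted p = 0.234), and the S100a8 promoter in 3 of 6, with -1.84 points ± 16.8 (exact adjusted p = 0.844).

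Of the 7 tested windows of the S100 interval, 6 had a mean level of at least 80% in DKO and in WT. The exception was 90482001-90483000, 9008 to 10007 bp after the S100a8 start and between the genes, which had the lowest level and the largest gain of the interval. It had 66.0%, 64.8% and 57.6% in DKO, against 47.4%, 58.6% and 38.9% in WT, and the groups overlapped by a single sample. Its difference of 14.5 points was 8.76 with matched CpG weights, 70.1 in 500 bp and 6.36 in 2000 bp around the same centre. The whole window holds only 9 CpGs with 29 to 54 calls a sample. The value in 500 bp rests on a part of these calls and is not read as a larger gain. The largest loss of the interval, in 90481001-90482000 beside it, was -4.44 points.

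Between Prtn3 and Elane, the window 79346001-79347000 had the largest gain among the tested windows of the loci whose groups did not overlap. It lies upstream of Elane, at -3056 to -2057 bp from the gene start, and has 25 CpGs, with 107 to 270 calls a sample. Its level was 36.7%, 39.3% and 33.1% in DKO, against 25.8%, 19.6% and 14.5% in WT. The difference was 16.4 points ± 3.72 (SE), and 11.3 with matched weights over 19 CpGs. Around the same centre it was 6.93 points in 500 bp and 8.87 points in 2000 bp. Across the Elane start, 79349001-79350000 had 90.0%, 90.0% and 94.7% in DKO and 84.3%, 86.6% and 66.7% in WT, again without overlap. The largest loss of this interval, at 79356001-79357000, was set by DKO replicate 1 alone, with 16.7%, 79.5% and 90.2% in DKO and 76.0%, 79.5% and 64.9% in WT, and its difference of -11.3 points became 11.4 without that sample.

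Other genes of granules and of the S100 family, 43 in lists of related proteins, could be followed at 13 promoters that had enough CpGs to be placed. These lie in 12 tested windows, of which 0 were called higher and 0 lower, where 0.690% of all tested promoter windows were called higher and 0.0716% lower. At an unadjusted p under 0.05 there were 0 of the 12, against 9.27% of all tested windows. Their median difference was 0.127 points, taken over the 13 promoters, and the extremes were -15.0 at Itgam and 5.57 at Csf3r. The Itgam window had 64.4%, 54.7% and 42.9% in DKO and 70.5%, 83.3% and 53.1% in WT, which overlap. The Cst7 window, at -10.9 points, had 22.4%, 25.9% and 20.0% in DKO, below the 30.6%, 27.5% and 42.9% in WT. Every DKO sample lay below every WT sample in 3.75% of all tested windows. Promoters of S100a1, S100a6 and S100a11, other calcium-binding proteins of the S100 family, had 0% in all samples, and that of S100a13 had 1.71% in DKO replicate 3 and 0% in the others. The promoter of Ctsc, whose product cathepsin C activates the granule proteases, had 10.2%, 0% and 4.65% in DKO and 0% in each WT sample. Csf3r, the receptor of the growth factor G-CSF, had at most 1.54% in any sample.

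The highly methylated promoters among them were Srgn, the granule proteoglycan serglycin, with 95.5% ± 7.87 in DKO and 92.8% ± 6.82 in WT, Epx, the eosinophil peroxidase, with 87.3% ± 4.32 in DKO and 89.7% ± 2.78 in WT, Gzma, the lymphocyte protease granzyme A, with 81.9% ± 5.52 in DKO and 82.7% ± 15.6 in WT, and S100a3, with 91.6% ± 5.52 in DKO and 90.6% ± 9.38 in WT (SD, n = 3 each). Bpi, a bactericidal protein of primary granules, had 4.76%, 16.2% and 4.17% in DKO, against 0%, 0% and 2.99% in WT. At Bpi the groups did not overlap. Separation in this direction, with DKO the higher group, was found in 9.05% of all tested windows, so nothing is read from it. The 1 kb window of the Bpi promoter had 50.4%, 38.3% and 53.7% in DKO, against 51.7%, 53.5% and 44.0% in WT. In that window the groups overlapped, with a difference of -2.31 points. Of the 11780 placed autosomal promoters with at least 20 calls in every sample, 9.89% had a mean level of 20% or more, and Ctsg, at 53.3%, is one of them.

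Among those promoters the 3 most like Ctsg over the 6 samples, by the mean absolute difference in level, were Gm34307 at 9.97 points, Gm13974 at 12.6 and Tmem267 at 12.7. Gm34307, a long noncoding RNA gene of chromosome 13, had 34.5%, 25.6% and 55.6% in DKO, against 53.2%, 71.4% and 59.0% in WT. No other promoter of the 6 genes had 20 calls in every sample, so no likeness was sought for them.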

How the data were processed

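The authors deposited 1 table with the count of methylated and of all read calls at each CpG in each of the 6 samples, neither normalised nor pooled. Alignment software BSMAP 2.74 and build mm9 are listed, per the submitters' processing notes. Not given in the sources used here: read filters and the treatment of PCR duplicates. Calls of overlapping or duplicate reads are not independent molecules, so intervals are too narrow. In the table, 0 CpGs appeared more than once and 0 columns were of other samples. Coordinates are counted from 1 on mm9.

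Counts were summed over 1 kb windows. Autosomal windows with at least 3 CpGs and 20 calls in every sample were tested by a quasi-binomial logistic model with dispersion moderated as in limma's squeezeVar (floor of 1, prior of 23.7 degrees of freedom), an F test and Benjamini-Hochberg adjustment over all windows. The test was checked on simulated data. The tools were Python 3.11.15, numpy 2.4.6, scipy 1.17.1, pandas 2.3.3, R 4.3.3 and limma 3.58.1. Promoters were placed without converting coordinates: the spacing of the CpGs in the RefSeq sequence (GRCm38.p6) had to match the listed mm9 CpGs exactly, once in the interval. The plan asked for at least 3 CpGs, and Mpo and S100a9, with 2 each, were placed as an exception made after the data were seen, using RefSeq's strand. Placed neighbours within 500 kb all kept their RefSeq distances, 24 of 24 at Mpo and 21 of 21 at S100a9. Prtn3 and Elane lie within one interval and share its level.

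Named windows were those called, their neighbours, the window of each promoter, and in each interval the tested windows with the largest gain, the largest loss and the lowest level. Others, and both extended stretches, were chosen after their values were seen. The loci, lists and tests were chosen with earlier results of these data known. Alternatives were the call minimum, window size and position, matched CpG weights, a replicate block, limma on log2 ratios and leaving out each sample.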

Additional observations from a re-analysis of the deposited data

How the results depend on the processing

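Against 3854 windows called in the genome and 2 in the loci, 304 and 0 were called with a minimum of 10 calls, 271 and 0 with 40, and 3626 and 0 with windows shifted by 500 bp. Leaving out 1 sample gave 29 to 749 in the genome and 0 to 1 in the loci. limma on log2 ratios called 0 and 0, with 61094 windows at an unadjusted p under 0.05. With the replicate number as a block the quasi-binomial test called 0 and 0, with 64211 windows at an unadjusted p under 0.05. Deviations of samples with the same number correlated by 0.00332 to 0.00359 over windows, each more than with other numbers, at -0.00204 to -0.00136. All these values are small. The main test was run without pairing, and whether the numbers pair the samples is not stated in the labels and was not settled. Interval differences moved to -5.61 points at Ctsg and 3.34 at S100a8 and S100a9 in windows with 20 calls, and to -0.150 at S100a8 and S100a9 with matched CpG weights. Against the median tested window the intervals lay at -6.66 (Mpo), -6.48 (Ctsg) and -4.16 (S100a8 and S100a9) points. The S100a8 promoter's 1 kb window lay 6.54 above the rest. The called Ctsg window moved to -14.8 in 2000 bp and -20.2 in a bin from the gene start, an alternative chosen after seeing the data. Differences that changed sign were those of 87607001 (1.20 with matched weights, -18.8 to 3.03 without 1 sample), 87608001 (12.98 with matched weights, 0.700 in 500 bp), 79342001 (-24.5 with matched weights, -4.85 in 2000 bp, -7.27 to 7.65 without 1 sample), 79356001 (6.95, 3.76, and -25.4 to 11.4) and 90499001 (-1.48, -0.308, and -2.87 to 4.52). The causes were not tested. Depth limits single CpGs to a few calls per sample, and 70 of the 140 windows could not be tested.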

Other observations

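Of the CpGs with exactly 2 calls, 7.88%, 9.66% and 6.24% had 1 methylated and 1 unmethylated call in DKO replicates 1, 2 and 3, against 3.87%, 5.12% and 3.75% in WT replicates 1, 2 and 3. The groups did not overlap. The part of this in the differences at the granule loci was not tested.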
